A study of Mus musculus with 9 samples.

Results

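MHC class I antigen presentation was described here through 10 genes: the heavy chains *H2-K1* and *H2-D1*, the light chain *B2m*, the peptide transporter subunits *Tap1* and *Tap2*, the loading bridge *Tapbp*, the immunoproteasome subunits *Psmb8*, *Psmb9* and *Psmb10*, and the transactivator *Nlrc5*. They were chosen by symbol among the 54432 genes of the count table, and each symbol matched 1 Ensembl identifier. RNAseq was performed on RAW 264.7 macrophages, a macrophage-like cell line from a BALB/c mouse transformed with Abelson leukemia virus, so all groups come from 1 transformed line. There were 3 libraries of untreated control cells, 3 of cells that received VLDL-sized emulsion particles (labelled VLDLsep) and 3 of cells that received chylomicron-sized emulsion particles (labelled CHYLsep, here CHYL-sized). Each particle was given at 1 mM, and cells were taken after 6 hours, according to the labels and the methods, although a caption of the study names a lower dose for the CHYL-sized particles. Both particles were sunflower oil droplets stabilised with the milk protein sodium caseinate and differed in droplet size. No group of caseinate alone was among the libraries, so the oil and the emulsifier cannot be told apart. According to the methods, samples of a condition from 1 experiment were pooled. Each library is thus a pool, and p-values measure the spread between these pools.

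MHC class I molecules show peptides from inside the cell to CD8 T cells. Proteasomes cut cytosolic proteins into peptides, the TAP transporter carries these into the endoplasmic reticulum, and tapasin with its partner chaperones loads them onto a heavy chain paired with beta-2-microglobulin. Interferons raise the transcription of most of these genes and exchange the constitutive catalytic subunits of the proteasome for the immunoproteasome subunits, while NLRC5 is the transactivator of class I promoters. Macrophages carry class I molecules at rest.

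The promoters of *H2-K1*, *H2-D1* and *B2m* are shown because these 3 genes encode the class I molecule itself and carry its classical promoter elements. The stretches are from RefSeq (GRCm38.p6), are written 5′ to 3′ on the strand of the gene, and those of *H2-K1* and *B2m* end with the inverted CCAAT letters. Capitals mark the NF-kappaB letters (GGGA, any 4 bases, CC), the interferon-response letters (GAA or GAAA, any 2 bases, GAAA), the letters TGACG of the X2 part of the SXY module, and the inverted CCAAT letters ATTGG, on either strand.
H2-K1, chr17:34000359-34000458, minus strand, upstream of the annotated transcripts: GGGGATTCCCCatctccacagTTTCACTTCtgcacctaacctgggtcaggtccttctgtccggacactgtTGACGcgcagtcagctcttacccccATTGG
H2-D1, chr17:35262923-35262952, plus strand, first part of the matching stretch, in the annotated 5′ UTR of 1 transcript (H2-D1-202): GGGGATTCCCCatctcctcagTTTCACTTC
B2m, chr2:122147548-122147638, plus strand, upstream of B2m and within the opposite-strand gene Patl2: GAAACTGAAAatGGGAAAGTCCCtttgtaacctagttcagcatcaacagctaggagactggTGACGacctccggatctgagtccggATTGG
The *H2-K1* stretch and the matching 100 bases of *H2-D1* were identical at 89 of 100 positions. In both, the NF-kappaB letters are followed by the interferon-response letters on the opposite strand (written TTTCACTTC), whereas in *B2m* the longer interferon-response letters come first.

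A promoter was matched for 8 of the 10 members, with *Tap2* and *Nlrc5* unmatched. Over windows from 250 bases before to 50 after the start, the longer interferon-response letters (GAAA, any 2 bases, GAAA) were present in *B2m* and the shorter ones (GAA, any 2 bases, GAAA) in *H2-K1* and *H2-D1*, against 3.44% and 7.52% of 32851 mouse promoters. The NF-kappaB letters were present in *H2-K1*, *H2-D1* and *B2m* against 20.7% of promoters. TGACG was present in *H2-K1*, *H2-D1*, *B2m*, *Tap1* and *Psmb9* against 20.8%, and the gamma-activated letters TTCNNNGAA were present in *Psmb8* against 8.30%. The inverted CCAAT letters were present in 6 members (*H2-K1*, *H2-D1*, *B2m*, *Tapbp*, *Tap1* and *Psmb9*) against 37.4% of promoters. These are matches of letters and not measured sites. The RefSeq starts of *Psmb9* and *Tap1* face away from each other with 225 bases between them, so the TGACG of *Tap1* and that of *Psmb9* are the same 5 bases, and so are their inverted CCAAT letters.

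Library totals lay between 22393893 and 22856792 estimated counts. The replicate 3 library stood apart in every group: the SD of its log2 differences from the other 2 replicates was 0.370 to 0.397, against 0.308 to 0.328 between replicates 1 and 2. Levels are given as counts per 1000000 (cpm) after TMM normalisation, in the order of replicates 1, 2 and 3. The estimated counts of *H2-K1*, *H2-D1* and *Tapbp* were whole numbers in 0 of 9 libraries, as happens where Salmon divides reads that match transcripts of several genes, while those of *B2m* were whole in 9 of 9. Counts of *Tap1* and *Psmb9* were whole in 1 of 9 libraries, and those of the constitutive proteasome subunits *Psmb5* and *Psmb7* in 0 of 9. The transcripts used for counting are those of the C57BL/6 reference, whose H2 haplotype differs from that of BALB/c.

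In control cells, the levels per kilobase of the longest coding transcript ran from *B2m* at 724 ± 50.6 cpm per kb (SD, n = 3) over *H2-D1* at 377 ± 23, *H2-K1* at 205 ± 8.85 and *Tapbp* at 66.9 ± 0.377 to the proteasome subunits. Of these, *Psmb8* stood at 49.8 ± 2.19 cpm per kb, *Psmb10* at 34.2 ± 0.347 and *Psmb9* at 20.5 ± 0.840. The transporter subunits were lower, with *Tap2* at 13.5 ± 0.568 and *Tap1* at 7.61 ± 0.557 cpm per kb, and *Nlrc5* was lowest at 1.34 ± 0.174. The control libraries of neighbours in this order did not overlap.

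VLDL-sized emulsion particles changed 6 of the 10 members (limma-voom, Benjamini-Hochberg adjusted p under 0.05 over 12637 genes), where 35.6% of all genes tested were called. The heavy chains *H2-K1* and *H2-D1* rose, while *Tap1*, *Psmb8*, *Psmb9* and *Psmb10* fell. In the same comparison 17.8% of genes were called higher and 17.9% lower. Treated and control libraries were fully separate for the same 6 members, as for 47.4% of all genes, and 6 had an unadjusted p under 0.05, as 44.7% of all genes did. CHYL-sized emulsion particles changed 4 members, *H2-K1* and *H2-D1* upward and *Tap1* and *Psmb9* downward, where 25.7% of all genes were called (12.7% higher and 13.0% lower). Groups did not overlap for 5 members, these 4 and *B2m* (41.7% of all genes), and 4 had an unadjusted p under 0.05 (37.0% of all genes). Both comparisons use the same control libraries. The median log2 fold change of the 10 members was -0.03 with VLDL-sized and -0.05 with CHYL-sized particles, beside medians of -0.00053 and 0.0011 over all genes. Without the replicate 3 libraries of all groups, 7 and 5 members were called, the addition being *B2m* in both. When counts were scaled by library size only, without TMM factors, the median over all genes moved to -0.0935 and -0.0786, higher genes made up 31.3% and 29.8% of the calls instead of 49.8% and 49.5%, and the heavy chains lost their CHYL-sized calls.

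**Figure D1:**
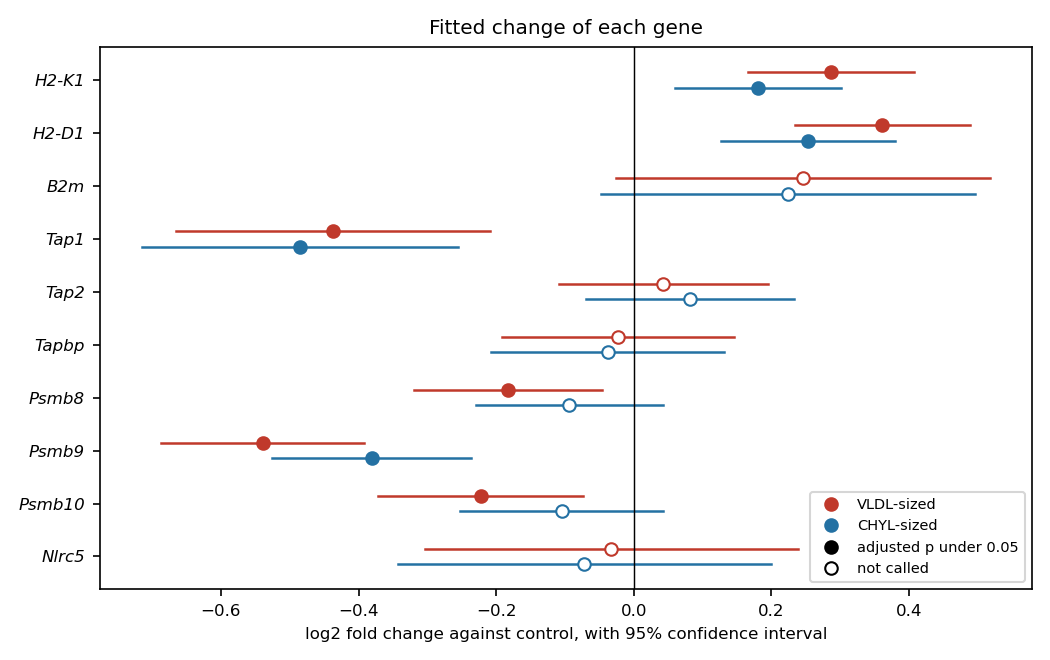
Fitted log2 fold change of each of the 10 genes against control (horizontal axis), with its 95% confidence interval, for VLDL-sized (red) and CHYL-sized (blue) particles; filled points have an adjusted p under 0.05. The heavy chains lie to the right of 0 with both particles, *Tap1* and *Psmb9* to the left with both, and *Psmb8* and *Psmb10* are filled with VLDL-sized particles only, a difference between particles that did not pass the test.

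*H2-D1* (chr17:35262730-35267499, plus strand, GRCm38) encodes the classical heavy chain at the D locus and took the largest share of class I heavy chain counts, 54.8% to 59.2%. It was measured at 833, 804 and 739 cpm in control, 1036, 1045 and 971 cpm with VLDL-sized and 949, 977 and 904 cpm with CHYL-sized particles. Every treated library exceeded every control library. The log2 fold change was 0.36 with VLDL-sized particles (SE 0.06, limma adjusted p = 0.00067), or 28.5% higher with a 95% interval of the fold from 1.18 to 1.40. With CHYL-sized particles it was 0.25 (SE 0.06, limma adjusted p = 0.0083), and 0.17 with an adjusted p of 0.071 when scaled by library size only.

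*H2-K1* (chr17:33996017-34000347, minus strand) encodes the classical heavy chain at the K locus and took 22.3% to 24.1% of the heavy chain counts. Control libraries gave 341, 339 and 315 cpm, VLDL-sized libraries 424, 401 and 390 cpm, and CHYL-sized libraries 361, 395 and 373 cpm. The treated libraries again lay above the controls without overlap. *H2-K1* rose by 0.29 on the log2 scale with VLDL-sized particles (SE 0.05, limma adjusted p = 0.0021) and by 0.18 with CHYL-sized particles (SE 0.05, limma adjusted p = 0.033). The CHYL-sized call was lost when any single library other than CHYL-sized replicate 1 was left out of the groups compared: without control replicate 1, 2 or 3 the log2 fold change was 0.20, 0.20 and 0.14 (limma adjusted p = 0.058, 0.063 and 0.091), and without CHYL-sized replicate 2 or 3 it was 0.14 and 0.19 (limma adjusted p = 0.12 and 0.065). It was also lost with scaling by library size only, at 0.10 (limma adjusted p = 0.24).

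Because reads can be divided among the near-identical heavy chain genes, the counts of 14 of them (*H2-K1*, *H2-D1*, *H2-Bl* and the measured H2-Q and H2-T genes) were summed, a step added after the fractional counts had been seen. The sum was 1423 ± 64.1 cpm in control, 1739 ± 38.5 cpm with VLDL-sized and 1626 ± 44.1 cpm with CHYL-sized particles (SD, n = 3). The summed counts were therefore higher after both particles, by a log2 fold change of 0.29 (limma adjusted p = 0.00088) and 0.19 (limma adjusted p = 0.013). Most of the sum came from *H2-D1* (54.8% to 59.2%) and *H2-K1* (22.3% to 24.1%). It was fitted with TMM factors only, and not with scaling by library size only.

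*B2m* (chr2:122147686-122153083, plus strand) encodes beta-2-microglobulin, the light chain shared by all classical class I molecules. Its level was 652, 642 and 572 cpm in control, 858, 779 and 599 cpm with VLDL-sized and 702, 819 and 665 cpm with CHYL-sized particles. Replicate 3 was the lowest library of every group, the VLDL-sized one fell within the control range, and the CHYL-sized libraries lay above all controls. The log2 fold change was 0.25 with VLDL-sized particles (95% interval -0.03 to 0.52, limma adjusted p = 0.15) and 0.22 with CHYL-sized particles (95% interval -0.05 to 0.50, limma adjusted p = 0.21), so neither passed the test. With 1 library left out, the first ranged from 0.14 without VLDL-sized replicate 1 (limma adjusted p = 0.43) to 0.40 without VLDL-sized replicate 3 (limma adjusted p = 0.0084), and the second fell to 0.14 without CHYL-sized replicate 2 (limma adjusted p = 0.51). Same-numbered VLDL-sized and control libraries deviated together across genes (correlations 0.138, 0.131 and 0.291), as did VLDL-sized replicate 2 and control replicate 1 (0.114). With the replicate number as a block, a pairing that these values do not settle, the *B2m* log2 fold change of 0.25 passed the test (limma adjusted p = 0.010).

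**Figure D2:**
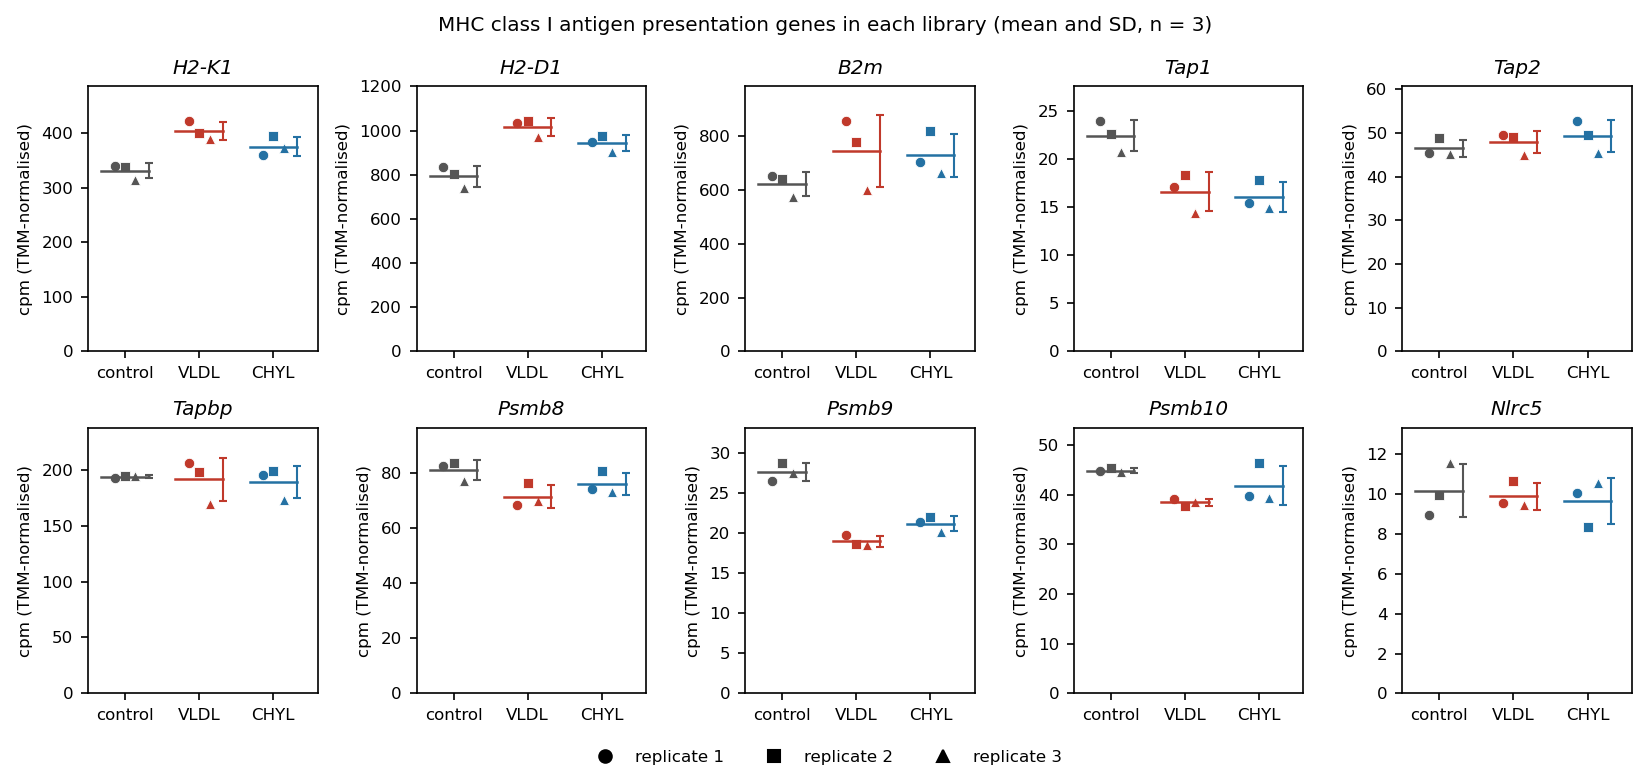
Level of each gene in each library (vertical axis, TMM-normalised cpm from 0, a separate scale per gene) for control, VLDL-sized and CHYL-sized cells, with the mean as a bar and the SD of 3 libraries as a whisker. *H2-K1* and *H2-D1* sit above the control libraries in all treated libraries, *Tap1* and *Psmb9* below them, and *B2m* replicate 3 is the lowest of its group each time.

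The TAP transporter is a pair of 2 half-transporters, and its genes behaved differently. *Tap1* (chr17:34187553-34197225, plus strand) was measured at 24, 22.6 and 20.8 cpm in control, 17.1, 18.4 and 14.5 cpm with VLDL-sized and 15.4, 17.8 and 14.9 cpm with CHYL-sized particles. No treated library reached the lowest control. *Tap1* fell with VLDL-sized particles (log2 fold change -0.44, SE 0.10, limma adjusted p = 0.0073) and with CHYL-sized particles (-0.49, SE 0.10, limma adjusted p = 0.0062), which corresponds to changes of -26.1% and -28.6%.

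*Tap2* (chr17:34203527-34216321, plus strand), the partner subunit, was at 45.5, 48.8 and 45.2 cpm in control, 49.6, 49.1 and 45.0 cpm with VLDL-sized and 52.8, 49.5 and 45.5 cpm with CHYL-sized particles. The 3 groups overlapped. Its log2 fold change was 0.04 with VLDL-sized particles (95% interval -0.11 to 0.19, limma adjusted p = 0.67), which became -0.05 with scaling by library size only, and 0.08 with CHYL-sized particles (95% interval -0.07 to 0.23, limma adjusted p = 0.43). For VLDL-sized particles the interval of *Tap2* does not meet that of *Tap1*, -0.67 to -0.21, and likewise for CHYL-sized particles, with -0.71 to -0.26 for *Tap1*, although the difference between the genes was not tested.

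*Tapbp* (chr17:33915899-33929292, plus strand) encodes tapasin, which holds empty class I molecules at the transporter. Control libraries were at 193, 194 and 195 cpm, VLDL-sized libraries at 206, 198 and 170 cpm, and CHYL-sized libraries at 196, 199 and 173 cpm. Within each treated group replicates 1 and 2 lay above all controls and replicate 3 below them. The log2 fold change was -0.02 (95% interval -0.19 to 0.15) and -0.04 (95% interval -0.21 to 0.13), and without the replicate 3 libraries 0.07 and 0.03, none of which passed the test.

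The immunoproteasome subunits replace the catalytic subunits of the constitutive proteasome and shift its cuts toward peptides that class I molecules can bind. *Psmb9* (chr17:34181987-34187764, minus strand; beta 1i) was at 26.6, 28.9 and 27.5 cpm in control, 19.8, 18.6 and 18.6 cpm with VLDL-sized and 21.5, 22 and 20.2 cpm with CHYL-sized particles. The 3 groups were separate from one another, with the VLDL-sized libraries lowest. *Psmb9* had the largest fall of the members in the VLDL-sized libraries, with a log2 fold change of -0.54 (SE 0.07, limma adjusted p = 0.00014) or a change of -31.2%, and fell with CHYL-sized particles by 0.38 on the log2 scale (SE 0.07, limma adjusted p = 0.0018).

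*Psmb8* (chr17:34197721-34201454, plus strand; beta 5i) was at 82.4, 83.8 and 77.0 cpm in control, 68.5, 76.2 and 69.7 cpm with VLDL-sized and 74.1, 80.7 and 73.3 cpm with CHYL-sized particles. The VLDL-sized libraries lay just below the controls and the CHYL-sized ones overlapped them. Its log2 fold change was -0.18 with VLDL-sized particles (SE 0.06, limma adjusted p = 0.040) and -0.09 with CHYL-sized particles (95% interval -0.23 to 0.04, limma adjusted p = 0.30). The VLDL-sized call of *Psmb8* was lost without control replicate 1 or 2 (-0.17 and -0.16, limma adjusted p = 0.11 and 0.13) and without VLDL-sized replicate 1 or 3 (-0.15 and -0.17, limma adjusted p = 0.13 and 0.10).

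*Psmb10* (chr8:105935735-105938444, minus strand; beta 2i), outside the MHC, was at 44.8, 45.4 and 44.5 cpm in control, 39.1, 37.8 and 38.6 cpm with VLDL-sized and 39.7, 46.5 and 39.4 cpm with CHYL-sized particles. All VLDL-sized libraries were below the controls, whereas CHYL-sized replicate 2 was above them. Its log2 fold change was -0.22 with VLDL-sized particles (SE 0.07, limma adjusted p = 0.026) and -0.10 with CHYL-sized particles (95% interval -0.25 to 0.04, limma adjusted p = 0.29). *Psmb10* kept its sign but not its VLDL-sized call without control replicate 1 or 2 (limma adjusted p = 0.064 and 0.071) or without any one VLDL-sized replicate (limma adjusted p = 0.053, 0.080 and 0.050).

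*Psmb9*, *Tap1*, *Psmb8* and *Tap2* lie side by side in 34335 bp of the MHC on chromosome 17. The gene models of *Psmb9* and *Tap1* overlap by 212 bp on opposite strands, and the strand setting of the libraries is not given in the sources used here, so reads in the overlap could be counted for either gene. *Psmb8* follows *Tap1* after a gap of 495 bp and *Tap2* follows *Psmb8* after 2072 bp. Of these neighbours, *Psmb9*, *Tap1* and *Psmb8* fell with VLDL-sized particles while *Tap2* was not called.

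The constitutive counterparts of the 3 immunoproteasome subunits had values in the other direction. *Psmb5*, the counterpart of *Psmb8*, rose from 94.8 ± 1.60 to 117 ± 10.4 cpm with VLDL-sized and 118 ± 6.17 cpm with CHYL-sized particles (SD, n = 3), a log2 fold change of 0.30 (limma adjusted p = 0.0050) and 0.32 (limma adjusted p = 0.0058). *Psmb6* and *Psmb7*, the counterparts of *Psmb9* and *Psmb10*, had log2 fold changes of 0.23 and 0.17 with VLDL-sized and 0.21 and 0.15 with CHYL-sized particles. Of these 4 values, only that of *Psmb6* with VLDL-sized particles passed the test (limma adjusted p = 0.040), and it did not without control replicate 1 or 2 (0.23 and 0.19, limma adjusted p = 0.096 and 0.14) or VLDL-sized replicate 1 or 3 (0.24 and 0.18, limma adjusted p = 0.085 and 0.12). Without CHYL-sized replicate 1, *Psmb6* passed with CHYL-sized particles, at 0.29 (limma adjusted p = 0.021). With the replicate block, *Psmb7* passed with VLDL-sized particles, at 0.17 (limma adjusted p = 0.020), while with 1 library left out it ranged from 0.08 without VLDL-sized replicate 3 to 0.22 without VLDL-sized replicate 1 and was not called.

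Expressed as a ratio of cpm per kb, *Psmb8* over *Psmb5* was 0.473, 0.497 and 0.447 in control, 0.326, 0.391 and 0.30 with VLDL-sized and 0.368, 0.368 and 0.331 with CHYL-sized particles. *Psmb9* over *Psmb6* averaged 0.0775 ± 0.00677 in control, 0.0454 ± 0.00365 with VLDL-sized and 0.0515 ± 0.00641 with CHYL-sized particles (SD, n = 3). *Psmb10* over *Psmb7* averaged 0.340 ± 0.00947, 0.260 ± 0.0275 and 0.286 ± 0.0297. All 3 ratios were lower in each treated library than in each control library. The differences were -28.6%, -41.5% and -23.6% with VLDL-sized and -24.7%, -33.8% and -15.9% with CHYL-sized particles. The two-sided exact permutation test gave p = 0.10 for each of these 6 comparisons, the smallest p that 3 against 3 libraries allow (adjusted p = 0.15 over 9 tests), so this test could not pass 0.05. Between the particles the groups overlapped (exact p = 0.60, 0.30 and 0.50).

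**Figure D3:**
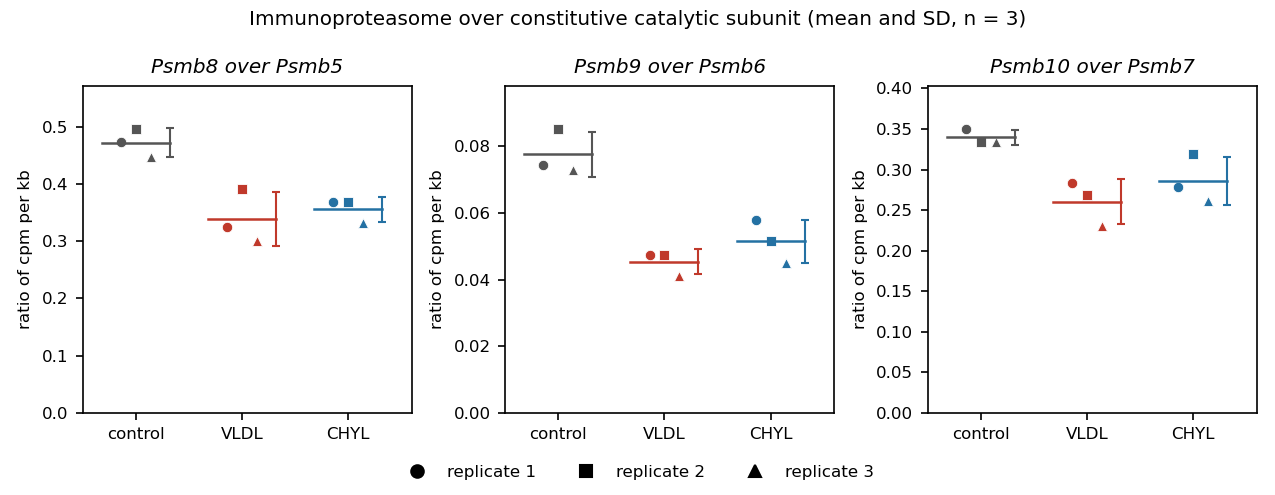
Ratio of each immunoproteasome subunit to its constitutive counterpart (vertical axis, ratio of cpm per kb, from 0) in each library of the 3 groups, with the mean as a bar and the SD of 3 libraries as a whisker. All treated libraries lie below all control libraries in the 3 panels, and the VLDL-sized and CHYL-sized libraries overlap.

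*Nlrc5* (chr8:94434356-94527272, plus strand), the class I transactivator, was the member with the fewest counts, 186 to 270 per library. It was at 8.96, 9.95 and 11.6 cpm in control, 9.54, 10.6 and 9.46 cpm with VLDL-sized and 10.1, 8.37 and 10.5 cpm with CHYL-sized particles. The 3 groups overlapped throughout. Its log2 fold change was -0.03 with VLDL-sized particles (95% interval -0.30 to 0.24, limma adjusted p = 0.87) and -0.07 with CHYL-sized particles (95% interval -0.34 to 0.20, limma adjusted p = 0.72). A change within these bounds is thus not excluded.

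The particles were also compared with each other, at the 1 dose and time that the labels give for both. No member was called (0 of 10), as no gene of the 12637 was (0%), with 812 genes at an unadjusted p under 0.05 (6.43%), while DESeq2 called 14 genes and edgeR 0, none of them a member. Without the replicate 3 libraries of all groups 259 genes were called and with the replicate block 147, again no member. The libraries of the particles did not overlap for *Psmb9* and *Psmb10*, 2 of 10 members, as for 11.3% of all genes. *Psmb9* was lower with VLDL-sized than with CHYL-sized particles, with a log2 difference of -0.16 (95% interval -0.31 to -0.0037, unadjusted p = 0.046, limma adjusted p = 0.77). For *H2-D1* and *H2-K1* the log2 difference was 0.11 in both, with 95% intervals of -0.02 to 0.24 and -0.01 to 0.23. For *Psmb8* and *Psmb10* it was -0.09 and -0.12, with 95% intervals of -0.23 to 0.05 and -0.27 to 0.03, and that of *Tap1* was 0.05 (95% interval -0.20 to 0.29). The widest intervals were those of *B2m*, -0.25 to 0.29, and *Nlrc5*, -0.24 to 0.32. Since these misses do not show that the particles act alike, the calls that appear with VLDL-sized particles alone, *Psmb8* and *Psmb10*, are not shown to differ between particles.

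The other steps of the pathway were taken from lists. Of 14 peptide supply genes (constitutive catalytic subunits, proteasome activators and trimming peptidases), 7 rose and 0 fell with VLDL-sized particles (median log2 fold change 0.17). With CHYL-sized particles 3 rose and 0 fell (median 0.12). Over all genes, 17.8% and 12.7% were called higher and 17.9% and 13.0% lower with VLDL-sized and CHYL-sized particles. The 7 became 4 without control replicate 1, and with scaling by library size only 3 rose and 1 fell, with a median of 0.08. The 3 became 6 without the replicate 3 libraries of all groups. *Psme4*, which encodes the proteasome activator PA200, rose from 96.4 ± 6.97 to 146 ± 11.2 and 128 ± 11.4 cpm (log2 fold change 0.60 and 0.41, limma adjusted p = 0.00026 and 0.0042). *Tpp2*, a cytosolic peptidase, rose from 267 ± 6.10 to 339 ± 5.63 and 320 ± 7.32 cpm (log2 fold change 0.35 and 0.27, limma adjusted p = 0.00013 and 0.0012). The interferon-inducible activator subunits *Psme1* and *Psme2* had log2 fold changes between -0.04 and 0.01 and were not called, nor was the trimming enzyme *Erap1*, at 0.04 and -0.00082.

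Among 10 peptide loading and folding genes, 3 rose (*Canx*, *Pdia3* and *Sar1b*, log2 fold change 0.15, 0.14 and 0.19) and 1 fell (*Ganab*, -0.13) with VLDL-sized particles, and 0 were called with CHYL-sized particles, where 35.6% and 25.7% of all genes were called. With scaling by library size only, 0 rose and 1 fell with each particle. Each of the 4 calls was lost without control replicate 2 (log2 fold change 0.15, 0.14, 0.21 and -0.13, limma adjusted p = 0.10, 0.078, 0.060 and 0.097), and each also without at least 3 other single libraries. With the replicate block, 6 of these genes rose and 1 fell with VLDL-sized particles, and without the replicate 3 libraries 5 rose and 1 fell. *Calr*, which encodes the chaperone calreticulin, was at 0.12 with both particles (limma adjusted p = 0.075 and 0.094), and at 0.15 without VLDL-sized replicate 3 (limma adjusted p = 0.045). With the replicate block its VLDL-sized value passed (0.12, limma adjusted p = 0.015). *Tapbpl*, which encodes the tapasin-related TAPBPR, was at -0.11 and -0.19 without a call.

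Of 20 other class I and class I-like genes, 16 passed the filter, and 3 rose and 2 fell with VLDL-sized and 2 rose and 2 fell with CHYL-sized particles, where 35.6% and 25.7% of all genes were called. With the replicate block 4 rose and 5 fell with VLDL-sized particles, and without control replicate 1 only 1 rose and 2 fell, as also without VLDL-sized replicate 2 or with scaling by library size only. With CHYL-sized particles 0 rose and 1 fell without control replicate 1 or 3 or CHYL-sized replicate 2, and 0 rose and 2 fell without CHYL-sized replicate 1 or with scaling by library size only. *H2-M3*, which presents formylated peptides, fell from 23.6 ± 1.32 to 18.0 ± 0.562 and 18.2 ± 1.17 cpm (log2 fold change -0.39 and -0.38, limma adjusted p = 0.0019 and 0.0037). *Cd1d1*, which presents lipids to NKT cells, rose with VLDL-sized particles from 4.35 ± 1.21 to 7.38 ± 0.482 cpm (log2 fold change 0.80, limma adjusted p = 0.016). It was also called higher with CHYL-sized particles, at 6.94 ± 1.52 cpm (0.69), but not without control replicate 1 or 3 or CHYL-sized replicate 1 or 2. The nonclassical genes *H2-Q1*, *H2-Q10* and *H2-T24* were also called with VLDL-sized particles, at 0.37, 0.42 and -0.52. With CHYL-sized particles *H2-Q1* and *H2-T24* were called, at 0.31 and -0.46. Near-identical copies may share the reads of *H2-Q1* and *H2-Q10*, whose counts were whole in 0 of 9 libraries, while those of *H2-T24* were whole in 9 of 9. The VLDL-sized call of *H2-Q10* was lost without any 1 of the 6 libraries (limma adjusted p = 0.052 to 0.12), that of *H2-Q1* without control replicate 1 or VLDL-sized replicate 2 (0.34 and 0.32), and that of *H2-T24* without control replicate 2 or VLDL-sized replicate 1 or 3 (-0.51, -0.44 and -0.47). The CHYL-sized calls of *H2-Q1* and *H2-T24* were both lost without control replicate 1 or 3 or CHYL-sized replicate 2 or 3.

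Of 22 regulators of class I transcription, 12 fell and 3 rose with VLDL-sized particles (median log2 fold change -0.24), and 8 fell and 3 rose with CHYL-sized particles (median -0.16). Over all genes, 17.9% and 13.0% were called lower and 17.8% and 12.7% higher in these comparisons. With CHYL-sized particles 5 fell and 0 rose without control replicate 1, 7 fell and 0 rose without CHYL-sized replicate 1, 6 fell and 1 rose without CHYL-sized replicate 2, 7 fell and 1 rose without CHYL-sized replicate 3, and 12 fell and 0 rose with scaling by library size only. With VLDL-sized particles 5 rose without the replicate 3 libraries. *Irf1*, a transcription factor that acts in the interferon response on *Tap1* and *Psmb9*, was at 31.7, 34.0 and 32.7 cpm in control, 18.5, 21.3 and 16.1 cpm with VLDL-sized and 23.9, 25.5 and 20.1 cpm with CHYL-sized particles. All treated libraries lay below all controls. The log2 fold changes were -0.82 and -0.51 (limma adjusted p = 0.00019 and 0.0045).

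*Irf9*, a transcription factor of the type I interferon response, fell by 0.74 and 0.62 on the log2 scale (limma adjusted p = 0.00029 and 0.0014), and *Nfkb1*, the p50 subunit of NF-kappaB, fell by 0.35 and 0.31 (limma adjusted p = 0.0016 and 0.0056). *Ezh2*, the methyltransferase of the Polycomb complex that can silence class I genes, fell by 0.39 with each particle (limma adjusted p = 8.7e-05 and 0.00015). Among regulators with positive values, the coactivator *Crebbp* rose with VLDL-sized particles by a log2 fold change of 0.35 (limma adjusted p = 0.0012). *Crebbp* was also called with CHYL-sized particles, at 0.20, but not without control replicate 1 or 2 or any 1 CHYL-sized library. *Rfx5*, which binds the X1 part of the SXY module, was at 0.33 with VLDL-sized (limma adjusted p = 0.056) and 0.37 with CHYL-sized particles (limma adjusted p = 0.043). The first of these values passed the test without VLDL-sized replicate 3 (0.43, limma adjusted p = 0.018) and with the replicate block (0.33, limma adjusted p = 0.0017). The second did not without control replicate 1 or 3 (0.39 and 0.28) or CHYL-sized replicate 1 or 2 (0.33 in both).

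Upstream of these, 11 of 13 interferon receptor and signalling genes passed the filter, and *Ifng* and *Ifnb1* were at 0 in all libraries. With VLDL-sized particles 4 fell and 1 (*Jak2*, a kinase of the receptors) rose, and with CHYL-sized particles 3 fell and 0 rose. Over all genes, 35.6% and 25.7% were called in these 2 comparisons. The 3 became 1 without control replicate 2 or CHYL-sized replicate 1 or 3. *Jak2*, at a log2 fold change of 0.17 (limma adjusted p = 0.034), was not called without control replicate 1 or 2 or VLDL-sized replicate 1 or 2 (0.15, 0.18, 0.16 and 0.16) or with scaling by library size only (0.08). *Ptpn6*, the phosphatase SHP-1, fell from 360 ± 5.13 to 209 ± 16.4 and 246 ± 20.7 cpm (log2 fold change -0.79 and -0.55, limma adjusted p = 1.8e-05 and 0.00032), and the interferon gamma receptor chain *Ifngr1* fell with VLDL-sized particles by 0.61 on the log2 scale (limma adjusted p = 0.0026). *Ifngr1* was also called lower with CHYL-sized particles (log2 fold change -0.44), but not without control replicate 2 or CHYL-sized replicate 1 or 3.

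Of 25 interferon-stimulated genes, 21 passed the filter. Among these, 14 fell and 1 rose with VLDL-sized particles (median log2 fold change -0.62), and 8 fell and 1 rose with CHYL-sized particles (median -0.45). Over all genes, 17.9% and 13.0% were called lower and 17.8% and 12.7% higher. The 14 became 7 without VLDL-sized replicate 1 and 9 without a filter, and the 8 became 13 with scaling by library size only. *Cmpk2*, *Ifi44*, *Ifit2* and the GTPase gene *Irgm1* fell with both particles, by 1.91, 0.79, 0.62 and 0.56 on the log2 scale with VLDL-sized particles. The 1 that rose was *Cd274*, which encodes the T cell inhibitory ligand PD-L1. It was at 3.70, 3.79 and 7.38 cpm in control, 22.9, 22.8 and 22.2 cpm with VLDL-sized and 17.1, 15.4 and 17.4 cpm with CHYL-sized particles, with no overlap between the groups (log2 fold change 2.27 and 1.82, limma adjusted p = 9.3e-06 and 8.3e-05). *H2-K1* and *H2-D1* were higher in the same VLDL-sized libraries in which 14 of 21 interferon-stimulated genes were called lower. Both carry the shorter interferon-response letters in their promoters, while *B2m*, with the longer letters, was not called. A part of these letters in the values was not tested.

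**Figure D4:**
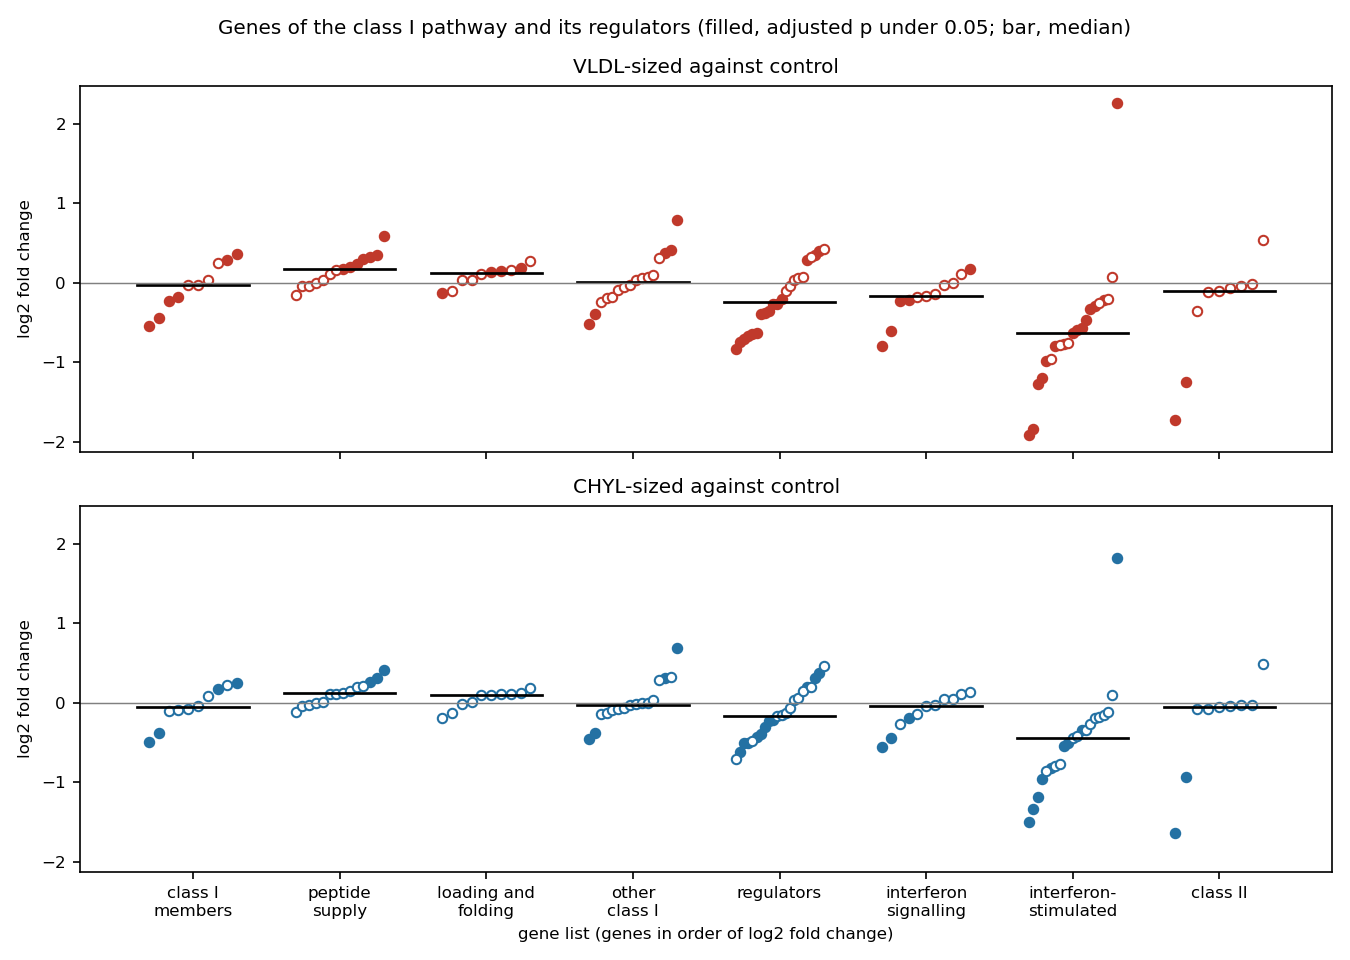
Log2 fold change against control (vertical axis) of each tested gene in the class I members and 7 related lists, for VLDL-sized (top) and CHYL-sized (bottom) particles; filled points have an adjusted p under 0.05 and the black bar is the median of the list. The bars of the peptide supply list lie above 0 and those of the regulators and interferon-stimulated genes below it, where *Cd274* is the point at the top.

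Of the MHC class II pathway, which presents peptides from outside the cell, the transactivator *Ciita* was at 0.0852 ± 0.0858 cpm and the chain genes *H2-Aa*, *H2-Ab1* and *H2-Eb1* at 0.0702 ± 0.0643, 0.423 ± 0.111 and 0.0140 ± 0.0243 cpm in control. *H2-Aa*, *H2-Eb1* and *Ciita* did not pass the filter. By contrast, the invariant chain gene *Cd74*, the peptidase gene *Ctss* and the thiol reductase gene *Ifi30* were at 367 ± 8.08, 575 ± 45.2 and 495 ± 14.9 cpm in control and were not called with either particle. Of the 9 genes of the list that passed, 2 fell with each particle (4 and 3 with scaling by library size only). Over all genes, 17.9% and 13.0% were called lower with VLDL-sized and CHYL-sized particles. *H2-DMb1* and *H2-DMb2*, which encode chains of a peptide exchange factor, were called lower with both particles, from 1.04 ± 0.418 and 1.59 ± 0.266 cpm in control. *H2-DMb1* passed the filter only through the control libraries (1.24, 0.564 and 1.33 cpm, against 0.136 to 0.388 cpm in treated libraries). Its calls are therefore tied to how it entered the test, and it was not tested when a control library was left out. *H2-DMb1* was no longer called without VLDL-sized replicate 3 (-1.27, limma adjusted p = 0.059) or without any 1 CHYL-sized library (-1.46 to -1.76), and *H2-DMb2* without CHYL-sized replicate 3 (-0.81, limma adjusted p = 0.061).

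The macrophage label was checked with 10 markers, all with more than 3 counts, whose summed level was 6926 to 7013 cpm in control, 6181 to 6375 cpm with VLDL-sized and 6359 to 6562 cpm with CHYL-sized particles. With VLDL-sized particles 6 of them fell and 1 rose, and with CHYL-sized particles 3 fell (7 fell with scaling by library size only). Over all genes, 35.6% and 25.7% were called with VLDL-sized and CHYL-sized particles. Markers of dendritic cells summed to between 4.80 and 8.33 cpm over all libraries, with *Itgax* and *Batf3* called higher with both particles. These 2 calls became 1 without control replicate 2 or 3 or VLDL-sized replicate 1 or 3 in the VLDL-sized comparison, and in the CHYL-sized comparison 0 without control replicate 2 or CHYL-sized replicate 2 or 3 and 1 without any other single library. T cell markers summed to between 3.03 and 5.75 cpm, with *Cd8a* at 0. The T cell kinase gene *Lck*, the only T cell marker tested, rose with VLDL-sized particles from 2.91 ± 0.0888 to 5.16 ± 0.280 cpm (log2 fold change 0.82, limma adjusted p = 0.00093) and was at 3.89 ± 0.556 cpm with CHYL-sized particles (0.41, limma adjusted p = 0.062). B cell markers summed to at most 0.171 cpm and epithelial markers at 0, and fibroblast markers lay between 1.5 and 2.53 cpm. Their part in the class I values was not tested. In bulk RNA, fewer cells that express a gene and less RNA of it per cell cannot be told apart.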

How the data were processed

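RNAseq of RAW 264.7 macrophages was measured in 9 libraries (3 groups of 3). The authors mapped reads with Salmon 0.14.1 to GENCODE transcripts of GRCm38.p6 and deposited an estimated count per gene, summarised with tximport. Per the methods these counts were scaled for library size and transcript length, but the deposited values looked unscaled (58.3% of those above 10 were whole within 1e-06). Symbols matched 54346 of 54432 identifiers in a GENCODE annotation of GRCm38. The members and lists were chosen with earlier results of these data known.

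Estimated counts were rounded, and the 12637 genes that exceeded 10 in 3 or more libraries went into limma 3.58.1 (voom weights, 1 model of all groups, Benjamini-Hochberg) after TMM normalisation with edgeR 4.0.16 in R 4.3.3. Intervals are at 95%. Alternatives were DESeq2 1.42.0, edgeR with its quasi-likelihood test, limma-trend (prior count 2), other scalings and filters, a replicate block, 2 groups at a time and each library left out. All replicate 3 libraries were left out in another setting, and heavy chain counts were summed in one added after the counts had been seen. The main fit and those with edgeR, DESeq2 and limma-trend were also run on simulated counts, and the other steps were not. Named genes were the 10 members, 14 pathway genes, and up to 5 further genes per list with the smallest p against control, not all of which are printed.

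Control and VLDL-sized libraries with the same number had correlated deviations from the means of their groups (0.138, 0.131 and 0.291 across genes). All were over a limit of 0.1 set for pairing. The main fit nevertheless used no pairing, and the replicate block was run only as an alternative. VLDL-sized replicate 2 with control replicate 1 also passed this limit, at 0.114. The other unlike-numbered pairs lay between -0.216 and 0.0118, so the values do not settle the pairing. Those of the CHYL-sized and control groups gave 0.124, 0.0694 and 0.337, so not all of them passed this limit.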

Additional observations from a re-analysis of the deposited data

How the results depend on the processing

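The call of 6 members with VLDL-sized particles ranged from 4 to 7 over the alternatives and that of 4 members with CHYL-sized particles from 2 to 5, the lowest being 2 (*Tap1* and *Psmb9*) with scaling by library size only. Leaving out 1 library gave 4 to 6 and 3 to 4 members, and 0 members were called between the particles in every setting. *H2-K1*, *H2-D1*, *Tap1* and *Psmb9* passed the test with VLDL-sized particles in every setting. *Psmb8* and *Psmb10* lost their VLDL-sized calls without a filter (limma adjusted p = 0.088 and 0.065), and *Psmb8* with the 2 groups alone (limma adjusted p = 0.052). With the replicate block, 7 members were called with VLDL-sized, 5 with CHYL-sized and 0 between particles, the addition being *B2m* in both, and calls over all genes rose to 6058, 4948 and 147. The block changed no other member's call, and none of the CHYL-sized values rests on it, since those numbers are not shown to pair. Whether the VLDL-sized numbers pair with those of the control is not settled either.

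Values close to 0 changed sign, none of them called. With scaling by library size only, the log2 fold change with VLDL-sized particles became -0.0504 for *Tap2*, -0.0518 for *Erap1* and -0.0610 for *Sec61a1*, and with CHYL-sized particles -0.0662 for *Psme2* and -0.0698 for *Sec61a1*. Without the replicate 3 libraries it became 0.0650 for *Tapbp* and 0.0951 for *Nlrc5* with VLDL-sized particles, and 0.0287 for *Tapbp* and 0.0286 for *Erap1* with CHYL-sized particles. With 1 library left out, the VLDL-sized values spanned -0.0786 to 0.0621 for *Tapbp*, -0.120 to 0.0640 for *Nlrc5*, -0.0763 to 0.0134 for *Psme2* and -0.0140 to 0.0862 for *Erap1*. The CHYL-sized values spanned -0.0753 to 0.0256 for *Tapbp*, -0.159 to 0.0275 for *Nlrc5*, -0.0293 to 0.0617 for *Psme2*, -0.0291 to 0.0348 for *Erap1*, -0.0195 to 0.0248 for *Sec61a1* and -0.235 to 0.0524 for *H2-DMa*. The difference between particles spanned -0.0875 to 0.172 for *B2m*, -0.0275 to 0.145 for *Tap1*, -0.0943 to 0.0147 for *Tap2*, -0.0480 to 0.0995 for *Tapbp* and -0.0596 to 0.105 for *Nlrc5*, and that of the log2 ratio of *Psmb8* over *Psmb5* spanned -0.185 to 0.00598. *Nlrc5* had the fewest counts of the members, and the SE of its log2 fold change (0.12) was about that of *B2m* (0.12). Whether depth limits the precision of *Nlrc5* was not tested.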
